A study of Homo sapiens with 4 samples.

Results

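The replication-dependent histone genes encode the bulk core histones H2A, H2B, H3 and H4 and the linker histones H1 that package newly copied DNA. They were taken as the protein-coding genes whose symbols start with H2AC, H2BC, H3C or H4C followed by a number, together with H1-1 to H1-6. By this rule 70 of the 60671 gene IDs in the count table were histone genes: 6 of type H1, 17 of H2A, 19 of H2B, 13 of H3 and 15 of H4. RNA had been sequenced from SK-N-BE(2), a long-established line of human neuroblastoma in which MYCN is amplified. One group of cells expressed a control short hairpin (shNC) and the other a hairpin targeting METTL14 (shMETTL14), with 2 libraries per group. The hairpins were delivered by lentivirus in the pLKO.1 vector, and infected cells were selected with puromycin. METTL14 encodes the partner of METTL3 in the methyltransferase that places N6-methyladenosine on RNA. The labels do not say which METTL14 hairpin was sequenced, and nothing states that the 2 libraries of a group came from separate cultures, so p-values measure only the spread between these libraries.

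Replication-dependent histone genes are transcribed as cells enter S phase and mostly lie in clusters, where many H2A and H2B genes sit head to head and share 1 promoter region. Their mRNAs normally carry no poly(A) tail. They end instead just after a short stem-loop that is bound by SLBP and cut with the help of the U7 small nuclear ribonucleoprotein, and the same stem-loop governs how fast the mRNA is destroyed when DNA replication stops. Some of these genes can also be read through into longer, spliced or polyadenylated transcripts. The libraries were made with an mRNA kit, and the level of a histone gene in them is the level of whichever of its transcripts that kit recovers.

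The stem-loop was searched as the letters GGNNCTTTTNAGNGCC, downstream of the stop codon in the GENCODE 29 transcripts of each histone gene. A match was found in 30 of the 70 genes. Only 32 of the 70 have a transcript model that goes at least 60 bases past the last amino acid codon, so most of the other models end before the stem-loop would be reached. Over all protein-coding genes, 34 of 19684 (0.173%) had a match anywhere in a transcript. The matches began between 25 and 70 bases after the last amino acid codon, with a median of 39, and these distances include the stop codon. They are shown for genes described below, as DNA letters of the transcript strand, with the 16 matched bases in capitals and 5 bases of flank on each side.
H2AC11: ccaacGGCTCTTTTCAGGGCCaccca
H2AC6: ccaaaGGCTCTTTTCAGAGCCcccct
H2BC6: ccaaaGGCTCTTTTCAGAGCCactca
H2BC4: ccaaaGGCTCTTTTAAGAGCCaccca
H4C8: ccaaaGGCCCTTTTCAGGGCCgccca
H4C9: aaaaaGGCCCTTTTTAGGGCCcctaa
The form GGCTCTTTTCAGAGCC was the one in 17 of the 30 genes. H2AC11 was the only gene among the 30 with GGCTCTTTTCAGGGCC.

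The region between the starts of H2BC11 and H2AC11 is shown because edgeR called these neighbours in opposite directions, H2BC11 with a call that was lost under several alternatives, as described below. It spans 247 bases, chr6:27132796-27133042 (GRCh38.p14, RefSeq), and is written on the plus strand, with the start of H2BC11 to its left on the minus strand and that of H2AC11 to its right on the plus strand. Capitals mark the TATA box (TATAA), the CCAAT box (CCAAT), the octamer (ATTTGCAT) and an E2F-like word (GCGCGAA), on either strand.
H2BC11-H2AC11: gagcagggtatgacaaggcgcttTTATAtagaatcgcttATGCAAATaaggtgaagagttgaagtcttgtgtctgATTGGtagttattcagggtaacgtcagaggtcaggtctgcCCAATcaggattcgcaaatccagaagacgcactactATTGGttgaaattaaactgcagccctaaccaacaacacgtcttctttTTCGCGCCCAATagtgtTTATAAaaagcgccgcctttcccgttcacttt
It held 4 CCAAT boxes, 1 octamer, 1 E2F-like word and 3 TATA box matches, 2 of which overlap on opposite strands at the H2AC11 end. The octamer lay at the H2BC11 end. In windows from 250 bases before to 50 after the start, the octamer was found in 14 of 18 H2B genes and 11 of 16 H2A genes, and in 0 of 6 H1 and 0 of 13 H4 genes, against 1.80% of 27305 promoters. The H1 box (AAACACA) was in 6 of 6 H1 genes and in 5.76% of all promoters. The CCAAT box was in 84.4% of the 64 histone genes in the table and in 35.7% of all promoters, and the TATA box in 92.2% and 21.1%. These are matches of letters and do not show binding.

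Many of these genes encode the same protein, which bears on how their reads could be told apart. All but 1 of the 15 H4 genes encode 1 identical protein of 103 residues, and 10 of the 13 H3 genes share 1 protein of 136 residues. The 17 H2A genes encode 11 distinct proteins and the 19 H2B genes 15, with median pairwise protein identities of 97.7% and 97.6%. The 6 H1 proteins are all distinct, with a median identity of 70.2%. At the DNA level the coding sequences were less alike, since an H4 gene shared a median of 86.1% of its coding bases with its nearest copy and an H3 gene 88.2%. Identical coding sequences were found for H2AC18 and H2AC19, H3C14 and H3C15, H4C14 and H4C15, and H4C11 and H4C12. For 53 of the 70 genes, at least 50% of the 100-base windows of the longest transcript occurred in no other gene on either strand. The other 17, H2AC15 and H2AC13 among them, share most of their windows with a copy or an overlapping gene, and their single values are uncertain.

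Each library had 18925786 to 19886214 reads assigned to genes. METTL14 itself had 753 and 754 reads in the shNC libraries and 303 and 321 in the shMETTL14 libraries, a log2 fold change of -1.26 (SE 0.08, edgeR adjusted p = 3.64e-11). The markers PHOX2A, HAND2, GATA3, ISL1, DBH, TH and MYCN of the line were present, with at least 1484 reads in every library. Of 5 markers of other cells, PECAM1 and PRRX1 had 0 to 3 reads per library, PTPRC, EPCAM and COL1A1 had 29 to 254, and their summed level was 19.2 and 19.7 CPM (reads per 1000000 reads counted in genes, after TMM scaling of library sizes) in shNC and 13.0 and 14.1 CPM in shMETTL14. Their part in the histone values was not tested.

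To ask how METTL14 knockdown changed the histone genes, each gene was compared between shMETTL14 and shNC with edgeR's quasi-likelihood test on the whole table. Most tested histone genes had lower values after knockdown, and under 50% of them passed the test. In RNA from whole cultures, fewer cells that express histone genes and less histone RNA per cell cannot be told apart. Of the 70, 45 had enough reads to be tested, 16 were called lower at an adjusted p under 0.05, 1 was called higher (H2BC11) and 28 were not called. The median log2 fold change over the 45 was -0.41, and 39 of them had a value below 0, against 8168 of all 16309 genes tested. H4C12 and H3C8, which passed the filter on their shNC libraries alone, are among these 39. Over all genes, 52.5% were called, 25.3% lower and 27.2% higher, with a median of -0.00. The histone genes thus had a smaller share of calls than all genes (37.8%), a larger share of lower calls (35.6%) and a smaller share of higher calls (2.22%). Among the 8864 tested genes with a mean level no higher than the most abundant histone gene, 40.4% were called, 24.7% lower and 15.7% higher, with 5136 values below 0 and a median of -0.12.

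Single histone genes had few reads, at most 497 in a library, and the calls depended on the tool. DESeq2's Wald test called 5 of them, all lower: H2AC15, H2AC11, H2AC6, H2BC6 and H4C3. It called 32.6% of all genes, and 14.2% lower. With edgeR, 10 were called when the second shNC library was left out. H1-2 and the 5 genes that DESeq2 called were the 6 of the 17 that edgeR called whichever library was left out. Both shMETTL14 libraries lay below both shNC libraries in 29 of the 45 genes tested (37.6% of all genes) and above them in 2 (38% of all genes). H4C12 and H3C8 are also among the 29.

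**Figure D1:**
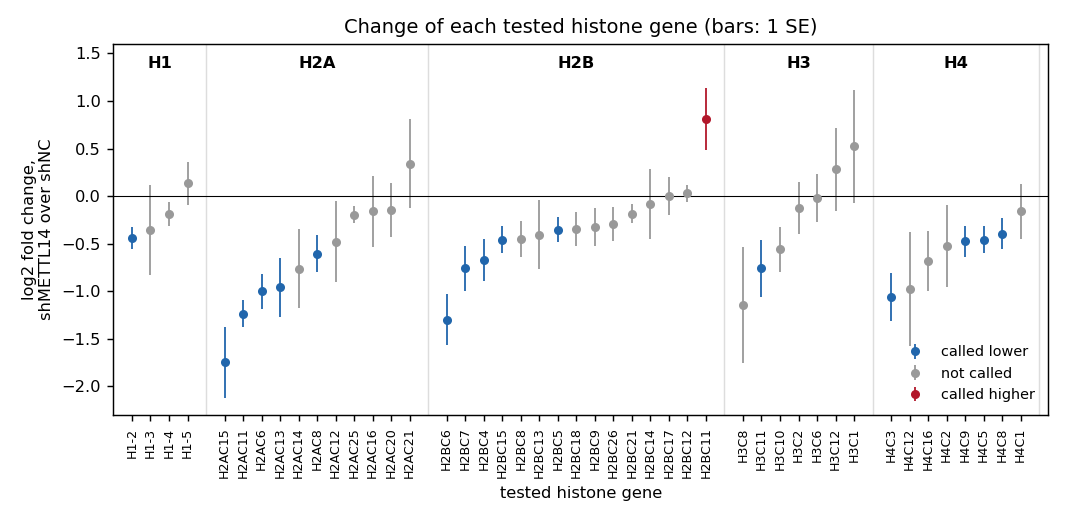
Log2 fold change of shMETTL14 over shNC for each of the 45 tested histone genes, grouped by histone type and ordered within each type, with bars of 1 standard error and colours for the edgeR call. Of the 45 points, 39 lie below 0, from -1.75 for H2AC15 to 0.82 for H2BC11, the only gene called higher.

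Summing all genes of a type removes the choice of which near-identical copy within the type a read was given to. It does not restore reads that were assigned to no gene, nor separate overlapping genes of different types such as H2AC15 and H2BC15. The 2 most abundant genes made up 84.4% of the H1 sum, 60.2% of the H2A sum and 43.3% to 48.8% of the others. The summed level of the 17 H2A genes was 55.04 and 59.95 CPM in the shNC libraries and 37.6 and 41.0 CPM in the shMETTL14 libraries, so that shMETTL14 had 68.4% of the shNC mean. The H4 sum was 33.8 and 35.9 CPM in shNC and 23.3 and 25.9 CPM in shMETTL14, or 70.6%. The H3 sum was 15.9 and 13.9 CPM in shNC and 11.3 and 11.5 CPM in shMETTL14, or 76.6%. H1 had 26.9 and 28.2 CPM against 22.1 and 23.5 CPM, or 82.7%, and H2B had 98.5 and 101.6 CPM against 81.7 and 87.3 CPM, or 84.5%. In all 5 types both shMETTL14 libraries were below both shNC libraries. These sums are a description without a test, since with 2 libraries a side the smallest two-sided p of an exact permutation test is 0.333. Over all 70 genes the sum was 234.9 ± 6.76 CPM in shNC and 182.6 ± 9.25 CPM in shMETTL14 (SD, n = 2).

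**Figure D2:**
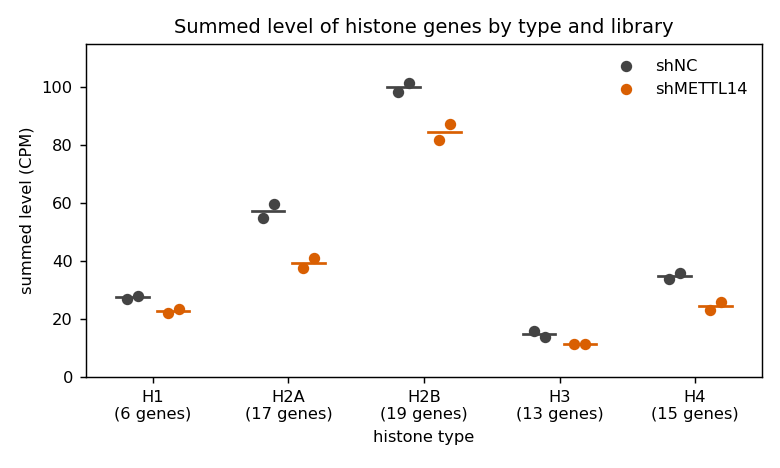
Summed level in CPM of all histone genes of each type, with 1 point per library and a line at the mean of each group. In each of the 5 types the shMETTL14 points lie below the shNC points, and H2A, at 68.4% of the shNC mean, has the lowest share of the 5.

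H2A genes, which encode partners of H2B in the nucleosome, gave the largest changes, with a median of -0.61. Of 11 tested, 5 (45.5%) were called lower, against 25.3% of all genes. H2AC11 (ENSG00000196787, chr6:27133042-27135291, plus strand) had 216 and 212 reads in the shNC libraries and 87 and 93 in the shMETTL14 libraries. The groups were far apart, with a log2 fold change of -1.24 (SE 0.14, edgeR adjusted p = 2.02e-07). H2AC6 (chr6:26124145-26139116) had 136 reads in both shNC libraries and 57 and 78 in shMETTL14, a log2 fold change of -0.9995 (SE 0.18, edgeR adjusted p = 9.38e-05). H2AC15 (chr6:27837947-27838339) had the lowest log2 fold change of all, -1.75 (SE 0.38, edgeR adjusted p = 0.000475). It had 35 and 60 reads in shNC and 15 and 13 in shMETTL14, and in GENCODE 29 its single exon lies within H2BC15 on the opposite strand, so none of its windows was its own. Because the strand setting of the counting is not known, reads of the 2 genes cannot be separated.

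The other H2A genes called lower were H2AC8 and H2AC13. H2AC8 had 92 and 104 reads against 68 and 60, a log2 fold change of -0.61 (SE 0.20, edgeR adjusted p = 0.0127). H2AC13 had 41 and 51 reads against 24 and 23, a log2 fold change of -0.96 (SE 0.31, edgeR adjusted p = 0.013). H2AC25, the H2A gene of the small 1q42 cluster, was not called: it had 435 and 455 reads in shNC and 380 and 392 in shMETTL14 (log2 fold change -0.20, SE 0.09, edgeR adjusted p = 0.0689). Its shMETTL14 libraries lay below its shNC libraries, and it was called lower under 4 alternatives: upper quartile scaling, library size alone, at least 10 reads in every library, and without the first shNC library. H2AC21, on 1q21, was the only tested H2A gene with a positive value, 0.34 (SE 0.47, edgeR adjusted p = 0.568), from 10 and 13 reads in shNC and 15 and 14 in shMETTL14.

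Of 15 H2B genes tested, 5 (33.3%) were called lower, 1 (6.67%) was called higher and 9 were not called. Over all genes 25.3% were called lower and 27.2% higher. Of the 15 values 13 were below 0, with a median of -0.35. H2BC6 (chr6:26172059-26184655) showed the largest fall, with 68 and 66 reads in shNC and 29 and 25 in shMETTL14 (log2 fold change -1.30, SE 0.27, edgeR adjusted p = 0.000294). Its exons overlap another annotated gene, AL353759.1. H2BC7 had 74 and 66 reads against 43 and 39 (-0.76 on the log2 scale, SE 0.24), and H2BC4 had 87 and 88 against 45 and 64 (-0.67, SE 0.22). H2BC15 had 166 and 169 reads in shNC and 118 and 124 in shMETTL14, a log2 fold change of -0.46 (SE 0.14, edgeR adjusted p = 0.00966). For H2BC5 the reads were 208 and 196 against 143 and 171, a log2 fold change of -0.35 (SE 0.13, edgeR adjusted p = 0.0292). In each of these 5 genes the groups did not overlap (37.6% of all genes lay below shNC in this way). The call used the same libraries, so this is no separate support.

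H2BC11 (chr6:27125897-27132750, minus strand) was the 1 histone gene called higher. It had 18 and 35 reads in the shNC libraries and 43 and 50 in the shMETTL14 libraries, with a log2 fold change of 0.82 (SE 0.33, edgeR adjusted p = 0.0413). Its 2 shNC libraries differed widely, and the call was lost with DESeq2 (adjusted p = 0.23), when libraries were scaled by the upper quartile or by their size alone, and when the first shNC or the second shMETTL14 library was left out. H2BC12 had 461 and 473 reads in shNC and 449 and 497 in shMETTL14, and its log2 fold change of 0.03 (SE 0.09, edgeR adjusted p = 0.812) was within the spread of the libraries. H2BC21, the most counted 1q21 histone gene, had 314 and 342 reads against 284 and 290 and was not called (log2 fold change -0.18, SE 0.10, edgeR adjusted p = 0.137).

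**Figure D3:**
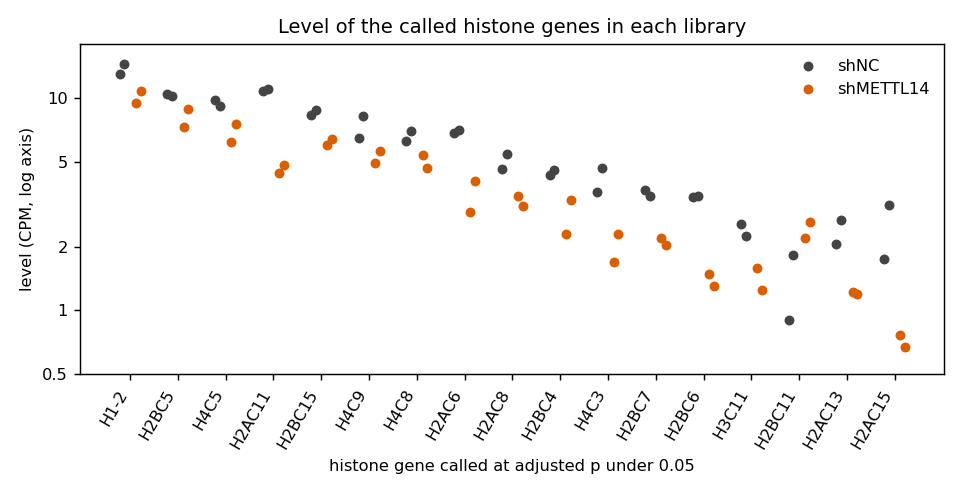
Level in CPM, on a log axis, of the 17 called histone genes in each of the 4 libraries, ordered by mean level. For the 16 genes called lower both shMETTL14 points lie below both shNC points, and for H2BC11 they lie above. The genes were chosen by a test on these same libraries, so this separation adds no support. Over all tested genes, 37.6% lay below in this way and 38% above.

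Of 8 tested H4 genes 4 were called lower (50%, against 25.3% of all genes) and 4 were not called, with a median of -0.50. All 8 values were below 0, but H4C12, with 12 and 10 reads in shNC and 3 and 8 in shMETTL14, had passed the filter on its shNC libraries alone. H4C3 fell most, with 72 and 90 reads in shNC and 33 and 44 in shMETTL14 (log2 fold change -1.06, SE 0.25, edgeR adjusted p = 0.0011). H4C5 had 196 and 175 reads against 122 and 146 (-0.46 on the log2 scale, SE 0.14, edgeR adjusted p = 0.00911). H4C9 had 130 and 157 reads against 97 and 108, a log2 fold change of -0.48 (SE 0.16, edgeR adjusted p = 0.0191). H4C8, with 125 and 134 reads against 106 and 90, only just passed (log2 fold change -0.39, SE 0.16, edgeR adjusted p = 0.0499). H4C1 had 46 and 35 reads in shNC and 35 and 37 in shMETTL14 and was not called (log2 fold change -0.16, SE 0.29). In the 4 called genes the groups did not overlap, and in H4C1 they did. For called genes this is no separate support, and 37.6% of all genes lay below shNC in this way.

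H3 genes had fewer reads and 1 call, a lower one, among 7 tested (14.3%, below the 25.3% of all genes). H3C11 had 51 and 43 reads in shNC and 31 and 24 in shMETTL14, a log2 fold change of -0.76 (SE 0.30, edgeR adjusted p = 0.0355). H3C10 had 72 reads in both shNC libraries and 57 and 40 in shMETTL14 and narrowly missed the threshold (log2 fold change -0.56, SE 0.24, edgeR adjusted p = 0.0527). H3C6 and H3C2 had values of -0.02 (SE 0.25) and -0.13 (SE 0.28), with overlapping groups. The ends of the H3 range rested on few reads. H3C8 had 17 and 10 reads against 10 and 2 (log2 fold change -1.14, SE 0.61), and H3C1 had 3 and 13 against 12 and 11 (0.52, SE 0.59), and neither was called. H3C8 had passed the filter on its shNC libraries alone. The median over the 7 tested H3 genes was -0.13.

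H1 genes encode the linker histones that bind DNA between nucleosomes. Of the 4 tested, 1 (25%) was called lower, near the 25.3% of all genes. H1-2 had 260 and 278 reads in shNC and 186 and 207 in shMETTL14, a log2 fold change of -0.44 (SE 0.12, edgeR adjusted p = 0.00304). H1-4 had 199 and 188 reads against 156 and 181. Its groups did not overlap, but its log2 fold change of -0.19 (SE 0.13, edgeR adjusted p = 0.23) was not called. H1-5, with 59 and 61 reads against 74 and 57, had overlapping groups and a log2 fold change of 0.13 (SE 0.23). H1-3 had 18 and 13 reads against 16 and 8 (-0.36, SE 0.48). H1-1 had no reads, and the testis gene H1-6 had 1 read in 1 library.

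The remaining 25 histone genes had too few reads to be tested, with at most 19 in any library, and 6 of them (H1-1, H2AC1, H2BC1, H3C4, H4C6 and H4C7) had none. H3C3 had 10 and 9 reads in shNC and 1 in each shMETTL14 library, and H2BC10 had 7 and 6 against 0 and 3. H3C7 had 19 and 8 reads against 4 and 5. No fold change is given for these genes at this depth. The pairs duplicated on 1q21 were all among them: H2AC18, H2AC19, H3C14, H3C15, H4C14 and H4C15 had between 0 and 8 reads per library. Among the tested genes, 41 of 45 had at least 10 reads in every library, and 1 passed the filter on its shNC libraries alone.

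Per kilobase of annotated exon, H2BC12 had the highest mean level, 63.4 CPM per kb, followed by H2AC25 with 23.8, H1-2 with 18.6 and H1-4 with 12.3. The value of H2BC12 depends on an exon length of 381 bases in GENCODE 29, which need not be the length the authors counted over. H2AC11, with the second largest number of H2A reads, came to 3.46 CPM per kb over 2250 exon bases. None of H2BC12, H2AC25 and H1-4 was called, and H1-2 was called lower.

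Head-to-head H2A and H2B genes were then compared, since both genes of a pair are read from the same region. Among the 64 histone genes with a promoter window there were 11 such pairs with starts at most 500 bases apart. In 8 of them both genes were tested. Both genes were called lower in 2 pairs, H2AC6 with H2BC4 and H2AC15 with H2BC15, the latter with overlapping exons. In 2 more, H2AC8 with H2BC8 and H2AC13 with H2BC13, only the H2A gene was called. H2BC8 came to -0.45 (SE 0.19, edgeR adjusted p = 0.0541), close to that of H2AC8, and the difference within the pair was not tested. Neither gene was called in 3 pairs. H2AC11 and H2BC11, across the 247 bases shown above, were the 1 pair called in opposite directions, at -1.24 and 0.82, and this rests on the H2BC11 call that was lost under the alternatives named above. In 6 of the 8 pairs the H2A gene had the more negative value, but no difference within a pair was tested. For H2AC8 and H2BC8 the difference was 0.15, beside standard errors of 0.20 and 0.19. The largest differences were in H2AC11 with H2BC11 and H2AC15 with H2BC15, the pairs whose limits are given above. H2BC12 (chr6:27146418-27146798, minus strand) and H2AC12 (chr6:27147129-27147515, plus strand) also lie head to head. This pair is not in these counts, because H2AC12 had no promoter window. The log2 fold change was -0.48 (SE 0.43) for H2AC12 and 0.03 (SE 0.09) for H2BC12, and neither was called.

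**Figure D4:**
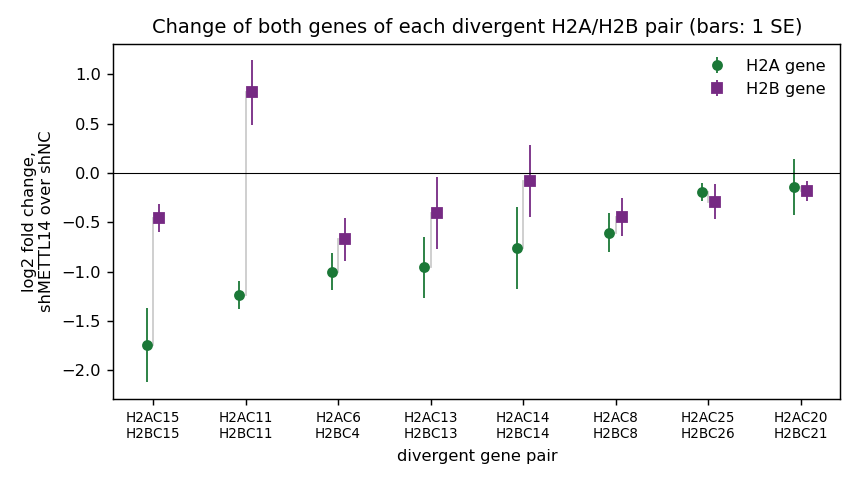
Log2 fold change of shMETTL14 over shNC for the H2A gene (circle) and the H2B gene (square) of 8 divergent pairs, with bars of 1 standard error. Both genes of each pair were tested and had a promoter window, so H2AC12/H2BC12 is not shown. The 2 genes of H2AC11/H2BC11 lie at -1.24 and 0.82, on opposite sides of 0, while both genes of each other pair shown lie below 0.

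The genes were also set out by the kind of transcript annotated for them. In 18 tested genes, H2AC11, H2AC6, H2BC6 and H4C8 among them, a GENCODE 29 transcript runs on for over 100 bases past the stem-loop. All 18 had shMETTL14 libraries below both shNC libraries (37.6% of all genes), and 9 were called lower (25.3% of all genes). H3C8, which passed the filter on its shNC libraries alone, is among the 18. The median log2 fold change of the 18 was -0.47. In 5 tested genes with a stem-loop the transcripts end within 100 bases of it. Of these, 3 were called lower and the median was -0.52. The 22 tested genes without a stem-loop in their models had 4 lower calls, 1 higher call and a median of -0.15, with 8 lying wholly below shNC. The median standard error was 0.18 for the genes with long transcripts and 0.31 for those without a stem-loop in their models. The part of read number in this difference was not tested.

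By location, all 17 calls fell among the 38 tested genes of the large 6p22 cluster, with a median of -0.45. These 38 are most of the 45 tested. Of them 44.7% were called (52.5% of all genes), and 42.1% were called lower (25.3% of all genes). The few tested genes elsewhere could give few calls. The 4 tested genes of 1q21 had values between -0.35 and 0.34 and a median of -0.16, and the 2 of 1q42, H2AC25 and H2BC26, had -0.20 and -0.29. Under upper quartile scaling H2AC25 and, on 1q21, H2BC21 were called lower as well (edgeR adjusted p = 0.0164 and 0.0431). H4C16, alone on chromosome 12, had 46 and 35 reads in shNC and 22 and 28 in shMETTL14 (log2 fold change -0.68, SE 0.32, edgeR adjusted p = 0.0789). The difference between clusters was not tested. Genes with an octamer in the promoter window had a median of -0.34 over 18 tested, and those without one -0.43 over 22. Restricting the 45 to the 40 with at least 50% of their windows to themselves left 15 called and a median of -0.37, and to the 38 whose exons overlap no other gene left 14 called and a median of -0.43. Of 13 histone pseudogenes with symbols of the same pattern, 3 were tested. H2BC20P had 234 and 236 reads in shNC and 111 and 176 in shMETTL14 (log2 fold change -0.70, SE 0.16), H2BC19P had 190 and 145 against 100 and 88 (-0.82, SE 0.16), and both were called lower.

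The replication-independent histones, most of whose mRNAs are polyadenylated and made throughout the cell cycle, went in both directions. Of 12 tested, 3 (25%) were called lower and 6 (50%) higher, with a median of 0.06. Over all genes 25.3% were called lower and 27.2% higher, so the share of lower calls is near the background. H3-3B, a gene of the replacement histone H3.3, had 10270 and 10236 reads in shNC and 6750 and 6989 in shMETTL14 (log2 fold change -0.57, SE 0.04, edgeR adjusted p = 1.06e-10). H3-3A, which also encodes H3.3, had 7996 and 8284 reads against 8376 and 8031. It was not called (log2 fold change 0.02, SE 0.04, edgeR adjusted p = 0.718) and is named here after its value was seen. H2AZ1 rose by 0.39 (SE 0.04) and H2AX, whose protein is phosphorylated at DNA breaks, by 0.34 (SE 0.04) on the log2 scale. H1-10 was called higher by edgeR (0.14, SE 0.05, adjusted p = 0.0415), but its 4497 and 3859 reads in shNC and 4299 and 4813 in shMETTL14 overlapped. The count of higher calls was 3 under upper quartile scaling, library size alone or DESeq2. H2AJ, with 69 and 86 reads in shNC and 34 and 42 in shMETTL14, was also called lower (-1.02, SE 0.25), and is named here after its value was seen.

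Of 26 genes that transcribe histone genes and process their 3′ ends, 10 were called higher, 3 lower and 13 were not called, with a median of 0.03. Over all genes 52.5% were called, so the share of calls in this list is near the background. SLBP, the stem-loop binding protein, had 1123 and 1041 reads in shNC and 1918 and 1829 in shMETTL14, a log2 fold change of 0.80 (SE 0.05, edgeR adjusted p = 2.23e-11). NPAT, the histone gene coactivator, did not differ beyond the spread (1385 and 1523 reads against 1374 and 1477, log2 fold change -0.02, SE 0.06). CASP8AP2, another protein of the histone locus body, was lower (-0.24, SE 0.05, edgeR adjusted p = 0.000794). SNRPG, SNRPB and SRRT, the gene of the cap-binding complex partner ARS2, were higher by 0.61, 0.47 and 0.43 on the log2 scale. SNRPG and SNRPB encode Sm proteins that U7 shares with the splicing ribonucleoproteins. The genes of the U7-specific proteins, chosen here after their values were seen, had log2 fold changes of 0.79 (SE 0.09) for LSM10 and -0.41 (SE 0.12) for LSM11. Both were called by edgeR, but the call of LSM11 was lost with DESeq2 (adjusted p = 0.133).

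Histone chaperones and S-phase genes had more higher than lower calls, against 27.2% higher and 25.3% lower over all genes. Nearly all genes of these 2 lists had a higher mean level than any histone gene. Among genes with a mean level no higher than the most abundant histone gene, only 15.7% were called higher. The part of level in the counts of these lists was not tested. Of 21 tested chaperone genes 10 were called higher, 2 lower and 9 were not called, with a median of 0.13. DNAJC9, a chaperone of H3 and H4, rose by 0.64 (SE 0.05) and SUPT16H, a subunit of FACT, by 0.30 (SE 0.04), while ATRX fell by 0.40 (SE 0.04) and NAP1L1 by 0.31 (SE 0.04). Of 43 S-phase genes 27 were called higher, 4 lower and 12 were not called, with a median of 0.22. CCNE2, the cyclin E2 gene, had 451 and 417 reads in shNC and 976 and 1009 in shMETTL14 (log2 fold change 1.20, SE 0.07, edgeR adjusted p = 1.15e-11). CLSPN rose by 0.89 (SE 0.05), FEN1 by 0.84 (SE 0.05) and PCNA, the sliding clamp of DNA polymerase, by 0.71 (SE 0.04). SLBP, CASP8AP2, CHAF1B and NASP are in 2 of these lists each. Beside the histone sums, the summed level of the S-phase genes was 4464 and 4510 CPM in shNC and 5316 and 5257 CPM in shMETTL14.

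**Figure D5:**
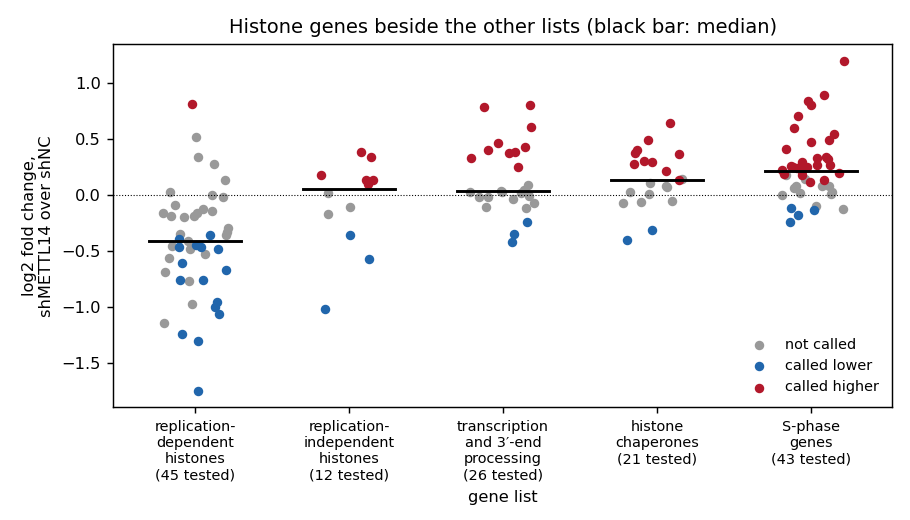
Log2 fold change of shMETTL14 over shNC for the tested genes of the replication-dependent histones and of 4 other lists, coloured by the edgeR call, with a black bar at each median. The histone genes have a median of -0.41 and 1 higher call, and the S-phase genes a median of 0.22 and 27 higher calls.

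Of 20 other RNAs that lack a poly(A) tail, 11 had no reads and 3 were tested. RN7SL1, the RNA of the signal recognition particle, had 6049 and 7422 reads in shNC and 5150 and 5985 in shMETTL14. It was called lower by edgeR (log2 fold change -0.27, SE 0.08, adjusted p = 0.00524) but not by DESeq2 (adjusted p = 0.381), and its levels overlapped between groups. SCARNA7 and SNORA73B, with 6 to 24 reads per library, had values of -0.70 (SE 0.54) and -0.30 (SE 0.40) and were not called. Their part in the histone values was not tested.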

How the data were processed

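The authors sequenced RNA of SK-N-BE(2) cells as 150-bp paired-end reads and deposited 1 table of raw counts per Ensembl gene ID. The submitters' processing notes name HISAT2 2.1.0, StringTie 1.3.6, HTSeq 0.13.5 and edgeR, without roles, and the build GRCh38. The annotation release and strand setting are not given in the sources used here, so where copies are nearly identical or genes overlap on opposite strands, reads could be dropped or given to the wrong gene. Lines that name no gene (19.1% to 19.9% of counts) were left out.

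Symbols came from a gene name table (68 histone genes) and from older names in GENCODE 29 (2 genes). Counts were tested with edgeR 4.0.16 in R 4.3.3 (quasi-likelihood F-test, TMM, filterByExpr with a minimum count of 10 and a total of 15, group as the only term), with Benjamini-Hochberg adjustment over all 16309 genes and a threshold of 0.05. CPM values (counts scaled by TMM library size) were computed from these. Gene coordinates are from GENCODE 29 (GRCh38), and promoter windows from RefSeq for 64 histone genes. On simulated counts the test recovered 147 of 200 genes changed by 0.5 on the log2 scale among 16194 tested, and 193 of 200 changed by 1 among 16192. It also called 1 and 13 genes that had not been changed. The changed genes were drawn from all levels above a low cutoff, with the same dispersion for all, and were far fewer than those called in the data. These shares therefore do not give the recovery for histone genes, which had few reads. Alternatives were RLE and upper quartile scaling, library size alone, DESeq2 1.42.0, other filters on low counts, a replicate block, leaving out each library, and summing the duplicated 1q21 pairs. Where the histone genes are named with full values, they are in each type the up to 4 tested genes with the highest mean level, the highest and lowest log2 fold change and the calls in the rarer direction. From the other lists they are the 4 smallest adjusted p-values and SLBP, NPAT, CASP8AP2, H2AX, H2AZ1, H3-3B and H1-10, where reported. Some genes that the rule takes in are not reported here. Any other histone gene given with values was chosen after its values were seen. These are H2AC12, H2AC13, H2BC4, H2BC7, H2BC8, H2BC26, H4C12, H4C16, untested genes and pseudogenes. The genes and lists were chosen with earlier results of these data known.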

Additional observations from a re-analysis of the deposited data

How the results depend on the processing

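Every one of the 17 called histone genes kept its direction under all 12 alternatives, and 5 were called under all of them. With DESeq2, 5538 genes were called in all and 2406 were called lower, 5 histone genes were called, all lower and none (0) higher, and 6 of the 45 tested had an unadjusted p under 0.05. Leaving out 1 library gave 7287 to 7458 calls in all, 10 to 15 histone calls, 9 to 14 lower and 0 to 1 higher, and a median between -0.35 and -0.47. With upper quartile scaling the histone median was -0.47, no histone gene (0) was called higher, and the log2 ratio of the sums was -0.34 for H1, -0.31 for H2B and -0.43 for all types. This scaling moved the share of lower calls among all calls from 48.2% to 58.3%. With library size alone 0 histone genes were called higher.

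Of the other lists, the replication-independent histones had 3 higher calls with upper quartile scaling, library size alone and DESeq2, and 3 to 5 when 1 library was left out. Transcription and 3′-end processing genes had 6 lower calls with upper quartile scaling and with library size alone. Chaperone genes had 4 lower calls with upper quartile scaling. S-phase genes had 1 lower call with DESeq2, 2 without the filter on low counts and 1 to 4 with 1 library left out. RNAs without a poly(A) tail had 0 lower calls with DESeq2 and 2 without the filter.

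Samples with the same replicate number did not deviate together (Pearson -0.00, Spearman 0.02 across genes), so the numbers were not taken as pairs. With the number as a block, 8926 genes and 19 histone genes were called. Where 1 library was left alone in its group it was assumed to vary like the other group. The depth limits single histone genes, which had at most 497 reads in a library and a median standard error of 0.25 on the log2 scale. Of 584 values of named genes under the alternatives, 534 kept their side of the threshold, 39 lost and 11 gained a call, and 0 reversed.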
